A study of Mus musculus with 6 samples.

Results

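Ccr1, Ccr2, Ccrl2, Cxcr4 and S1pr1 are 5 genes for cell-surface receptors through which leukocytes sense attractant gradients. They were selected by symbol, as 5 of the 35598 gene identifiers in the deposited tables, with earlier results of these data known. Ccr1, Ccr2, Ccrl2 and Cxcr4 belong to the chemokine receptor family in the wider sense, whereas S1pr1 encodes a receptor for the lipid sphingosine-1-phosphate (S1P), so the set is not one of chemokine receptors alone. The study profiled the border macrophages of the brain (CAMs, for central nervous system-associated macrophages), which sit along blood vessels and in the meninges and choroid plexus, by RNA sequencing. The cells came from brains of male C57BL/6 mice and were sorted as CD3-negative cells carrying CD11b, CD45 and CD206. Strain, sex and gate were the same in both groups, which were 3 young libraries (2 months of age) and 3 aged libraries (18 months of age). The labels name no treatment or transgene, and whether each library came from an animal of its own is not stated. P-values therefore set the difference between the groups only against the scatter of these libraries, and that scatter may be technical.

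Chemokine receptors cross the membrane 7 times and couple to inhibitory G proteins, which set off calcium release, phosphoinositide signalling and actin remodelling towards the source of a chemokine. CCR2 brings inflammatory monocytes out of bone marrow towards CCL2, and CCR1 binds several inflammatory CC chemokines. CXCR4 holds cells in niches that make CXCL12, and S1PR1 draws lymphocytes out of tissues along S1P gradients. CCRL2 is an atypical member that binds the attractant chemerin and presents it to cells carrying CMKLR1 instead of signalling through G proteins.

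The coding stretch at the inner end of the third transmembrane helix is shown because conventional and atypical receptors are known to differ there. In conventional chemokine receptors it holds the aspartate-arginine-tyrosine motif that takes part in G protein coupling, and in S1pr1 the related glutamate-arginine-tyrosine. Each line gives 30 bases of the GENCODE M21 coding sequence (mm10), 5′ to 3′ on the gene's own strand. The 9 capitals mark the codons at the place of that motif.
Ccr1 (chr9:123964084-123964113, minus strand): ttgacgattGACAGATACctggccattgtc
Ccr2 (chr9:124106123-124106152, plus strand): ctgacaattGATAGGTACttggctattgtt
Cxcr4 (chr1:128589500-128589529, minus strand): atcagcctgGACCGGTACctcgctattgtc
S1pr1 (chr3:115712503-115712532, minus strand): atcgccattGAGCGCTACatcaccatgctg
Ccrl2 (chr9:111056015-111056044, minus strand): ctccttgtgCAAGGATACagggtgttttcc

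Against the Ccr1 stretch, 7 of the 30 bases differed in Ccr2, 10 in Cxcr4, 13 in S1pr1 and 17 in Ccrl2. Some of these differences leave the amino acid unchanged. Ccr1 and Ccr2 sit in one cluster of receptor genes on mm10 chromosome 9 (Ccr1 from 123962124 to 123968692, Ccr2 from 124101950 to 124113557). Ccrl2 (111054486 to 111057519) lies on the same chromosome, 12904604 bases away from Ccr1. Cxcr4 spans 128588199 to 128592293 on chromosome 1 and S1pr1 115710433 to 115715072 on chromosome 3. In the annotation, 0 genes overlap any of the 5 members, so reads from an opposite strand have no annotated source there.

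The coding sequence of Ccr1 shared an exact run of 47 bases with Ccr3 and of 31 bases with Ccr1l1, which bears on how far their reads can be told apart. Ccr1l1 had 0 counts in every library, and Ccr3 had 41 counts in young replicate 2 and 0 elsewhere, so few or no reads were assigned to these neighbours of Ccr1. The level of Ccr2 is uncertain as far as the authors' counting split reads between chemokine receptor genes with near-identical stretches.

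The libraries held 26605077 to 33306093 counts. Levels are given as CPM, counts scaled to a common library size with TMM factors. In log2 CPM, pairs of libraries within a group had r of 0.589 to 0.688 and pairs across groups 0.570 to 0.659, across genes, which are not independent replicates. All 15 CAM markers on the list used here (among them Mrc1, the CD206 gene of the gate, Pf4 and Lyve1) were above 3 counts in every library. Their summed level was 39921 to 47509 CPM at 2 months and 35990 to 41019 CPM at 18 months, but only 3 of the 15 fitted changes were above 0. Apoe, the largest of them, was at 12923 to 16924 CPM at 2 months and 20019 to 27343 CPM at 18 months. Mrc1 (2674 to 2940 and 1182 to 2345 CPM, log2 change -0.79, SE 0.32, edgeR adjusted p = 0.817), Pf4, Lyve1, Ms4a7, Maf, Dab2 and Ednrb were lower in every aged library than in all young ones. Of all genes tested, 7.19% were lower without overlap. None of the 15 markers passed the test, and the part of these differences in the receptor levels was not tested. In bulk samples, fewer cells of a type and less RNA per cell cannot be told apart.

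Per transcript length, Ccr1 was the most abundant of the 5 genes in every library, and it was the 1 member whose age groups did not overlap. Ccr2, Ccrl2, Cxcr4 and S1pr1 overlapped between groups. No member passed edgeR's quasi-likelihood test after adjustment over the 10661 genes tested, where 1 gene (0.00938%) was called. At an unadjusted p under 0.05 there was 1 member, Ccr1, against 5.67% of all genes tested (3.63% higher and 2.04% lower). The DESeq2 Wald test and limma-voom also called 0 members, with 0 and 1 at an unadjusted p under 0.05. The fitted log2 fold changes, aged minus young, were above 0 for all 5 members (median 0.76), as were 49.3% of all genes (median -0.023).

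**Figure D1:**
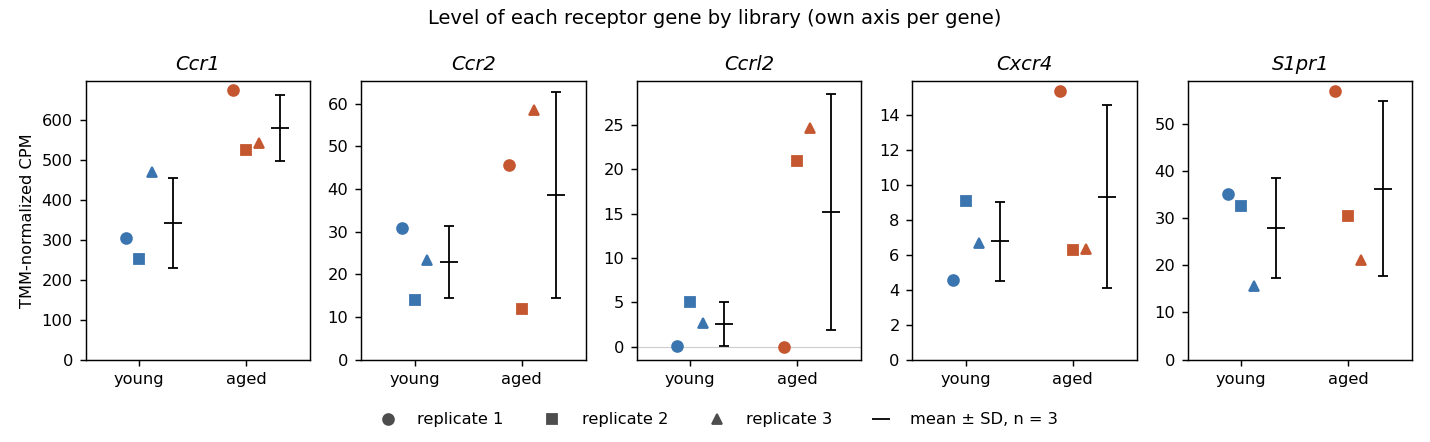
Level of each receptor gene in TMM-normalized CPM (vertical axes, starting at or below 0, one scale per gene) in the 3 young and 3 aged libraries; symbols are libraries and the bar is the mean ± SD. The aged Ccr1 values sit above all young ones, the other 4 genes overlap, and Cxcr4 and S1pr1 each have their highest value in aged replicate 1.

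Ccr1 encodes the receptor for CCL3, CCL5 and related inflammatory chemokines. Its level was 303, 253 and 469 CPM in young replicates 1, 2 and 3, and 674, 523 and 541 CPM in the aged replicates, the order used for all libraries here. Each aged library was above each young one, with young replicate 3 closest to the aged range. The coefficient of variation was 33.2% in young and 14.3% in aged libraries, against medians of 17.9% and 36.7% over the 476 tested genes within 2-fold of its mean. The group means were 342 ± 113 and 579 ± 82.6 CPM (SD, n = 3 each, as for all values with ± here), a ratio of 1.70. The log2 fold change was 0.76 (SE 0.33, 95% interval 0.028 to 1.50, edgeR adjusted p = 0.855), so the difference did not hold up against the adjustment over all genes. Of all genes tested, 7.54% were higher in every aged library than in all young ones, and of the 2189 genes averaging 50 CPM or more, 11.2% were. The fold change lay between 0.59 (without young replicate 2) and 1.07 (without young replicate 3) when 1 library was left out. On the authors' TPM, which are scaled to transcript length, it was 1.17 on the log2(TPM + 1) scale (limma adjusted p = 0.497).

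Ccr1 is also carried by neutrophils and monocytes, so the markers of these cells are given beside it. Neutrophil markers (12 genes, led by S100a8 and S100a9) summed to 12090 to 37866 CPM at 2 months and 25.8 to 21660 CPM at 18 months. The lowest sum was that of aged replicate 3, where S100a8 was at 0.778 CPM and Ccr1 at 541 CPM. Csf3r, another gene of that list, went the other way, at 19.2 CPM there against 1.38 to 5.96 CPM in the young libraries. Microglia markers (15 genes) were at 6044 to 8667 CPM at 2 months and 11416 to 19522 CPM at 18 months, without overlap and with 14 of 15 fitted changes above 0. No gene of these 2 lists was at 0 in every library. Among the young libraries Ccr1 and the microglia sum had the same order, both highest in replicate 3 and lowest in replicate 2, and among the aged ones Ccr1 was highest in replicate 1, which had the lowest microglia sum. The part of these cells in the Ccr1 difference was not tested.

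Ccr2 encodes the receptor for CCL2, CCL7 and CCL12. Its level was 30.9, 14.1 and 23.4 CPM at 2 months and 45.5, 11.8 and 58.5 CPM at 18 months. Aged replicates 1 and 3 were above every young library, and aged replicate 2 was the lowest of all 6. The means were 22.8 ± 8.43 and 38.6 ± 24.1 CPM, and the log2 fold change of 0.76 was smaller than its standard error (SE 0.81, 95% interval -1.06 to 2.58, edgeR adjusted p = 0.993). The fitted change of Ccr2 thus equalled that of Ccr1 at 2 decimals, while its interval crossed 0. The value ranged from 0.34 without aged replicate 3 to 1.19 without aged replicate 2.

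Because CCR2 is best known from Ly6C-high monocytes, monocyte markers were read in the same libraries. The 11 genes summed to 269 to 782 CPM at 2 months and 271 to 683 CPM at 18 months, and 0 of them were at 0 in every library. In aged replicate 3, which had the highest Ccr2 level, the monocyte genes Ly6c2, Chil3 and Hp had 0 counts. Another gene of the list, Ms4a4c, was at 225 CPM there and at 120 to 290 CPM in the other libraries. Dendritic cell markers (9 genes, Clec9a at 0 in every library) summed to 240 to 973 CPM at 2 months and 610 to 1103 CPM at 18 months. That sum was almost all Cd209a (314 of 335 CPM in young replicate 1 and 1080 of 1103 CPM in aged replicate 3), and 4 to 7 of the 9 genes were at 3 counts or fewer in each library. The part of monocytes and dendritic cells in the Ccr2 level was not tested.

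Ccrl2, the atypical chemerin-binding receptor gene, varied more between libraries of a group than any other member, with a coefficient of variation of 95.5% in young and 87.5% in aged libraries. It had 3, 136 and 74 counts in the young libraries (0.0961, 5.06 and 2.65 CPM) and 0, 809 and 698 counts in the aged ones (0, 21.0 and 24.7 CPM). Aged replicates 2 and 3 were above every young library, while aged replicate 1 was at 0, which allows up to 3 counts, or 0.104 CPM, and so cannot be set below young replicate 1. The means were 2.60 ± 2.48 and 15.2 ± 13.3 CPM and the log2 fold change was 2.55 (SE 2.24, 95% interval -2.48 to 7.57, edgeR adjusted p = 0.993). It was 1.03 in limma-voom (adjusted p = 0.936). Of the 3789 tested genes with a mean within 2-fold of that of Ccrl2, 19.2% likewise had 3 counts or fewer in at least 2 libraries, and their median coefficients of variation were 89.9% and 88.7%. No difference between the age groups was detected. In aged replicate 3, where Ccrl2 was highest, 5 of the 12 neutrophil markers were at 3 counts or fewer. Csf3r of the same list was at 19.2 CPM there, above the young libraries (1.38 to 5.96 CPM). The part of neutrophils in the Ccrl2 level was not tested.

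Cxcr4 encodes the receptor for CXCL12 and was low in every library. Its level was 4.58, 9.08 and 6.65 CPM at 2 months and 15.4, 6.27 and 6.33 CPM at 18 months. Aged replicate 1 stood above the other 5 libraries, and aged replicates 2 and 3 lay within the young range. The means were 6.77 ± 2.25 and 9.33 ± 5.25 CPM (aged minus young 0.46 on the log2 scale, SE 1.41, 95% interval -2.69 to 3.62, edgeR adjusted p = 0.997). Without aged replicate 1 the fitted value was -0.094, so its direction rested on that library.

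S1pr1 followed with the same library on top. Its level was 35.2, 32.6 and 15.7 CPM at 2 months and 57.1, 30.5 and 21.2 CPM at 18 months. Aged replicates 2 and 3 were again within the young range. The means were 27.8 ± 10.6 and 36.2 ± 18.6 CPM (aged minus young 0.38 on the log2 scale, SE 0.73, 95% interval -1.26 to 2.02, edgeR adjusted p = 0.993). Without aged replicate 1 the fitted value was -0.10.

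Lymphocytes carry both CXCR4 and S1PR1, and the summed markers of T and NK cells were highest in that same library. T and NK cell markers (11 genes) summed to 152 CPM in aged replicate 1, to 0.318 and 22.5 CPM in the other aged libraries and to 0.894 to 29.8 CPM in young ones. The sum was carried by Cd3d (59.4 CPM in aged replicate 1) and Cd3g (66.5 CPM). Cd3e and Trbc2 were also highest there, but the list did not share one pattern. Trac (0.139 CPM in aged replicate 1 and 5.00 CPM in aged replicate 2) and Nkg7 (7.96 and 8.73 CPM) were highest in aged replicate 2. Lck was highest in young replicate 3, and Cd8a was at 3 counts or fewer in every library. Klrb1c, Gzma and Ncr1 were at 0 in every library. B and plasma cell markers (9 genes) summed to 163 to 204 CPM at 2 months and 214 to 236 CPM at 18 months. Cd69, whose product binds S1PR1 and removes it from the cell surface, had 657 counts in aged replicate 1 and 0 to 2 counts in the other 5 libraries. Klf2, a transcription factor that activates S1pr1 in lymphocytes, was at 29.7, 43.9 and 15.5 CPM at 2 months and 3.44, 20.3 and 32.1 CPM at 18 months, lowest in aged replicate 1 (log2 change -0.67, SE 0.98, edgeR adjusted p = 0.993).

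S1PR1 is also abundant in endothelium and astrocytes. Endothelial markers (10 genes) summed to 20.6 to 36.6 CPM at 2 months and 15.4 to 29.8 CPM at 18 months. In each library 3 to 8 of the 10 were at 3 counts or fewer, Tek in every library, and 0 of the 10 were at 0 throughout. Pecam1, the largest on average, was at 8.70 to 20.9 CPM, so the sum rested on few genes. Astrocyte markers (8 genes, 0 of them at 0 throughout) summed to 47.8 to 58.4 CPM at 2 months and 66.4 to 253 CPM at 18 months, highest in aged replicate 3, where S1pr1 was lowest of the aged group. Of these 8 genes, 1 to 4 were at 3 counts or fewer per library, and Gfap was at 0.959 CPM or less throughout. Slc1a3 made up 108 of 125 CPM in aged replicate 1, and Aldoc was the largest in aged replicate 3 (77.0 CPM). The part of lymphoid, endothelial and astrocyte RNA in the Cxcr4 and S1pr1 levels was not tested.

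**Figure D2:**
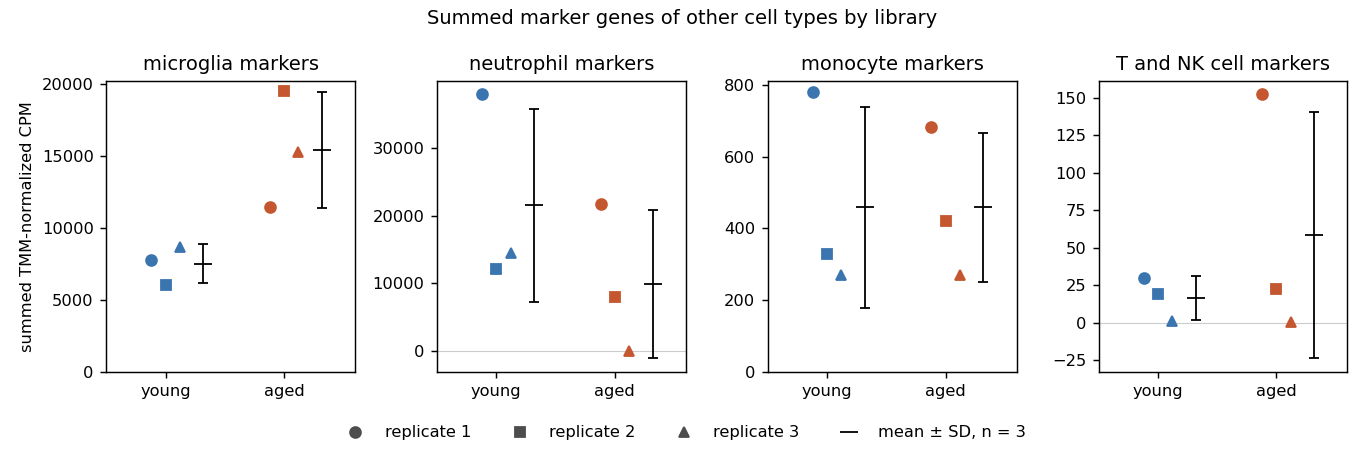
Summed TMM-normalized CPM of marker genes of 4 other cell types (vertical axes) in the young and aged libraries; symbols are libraries and the bar is the mean ± SD. The sum of T and NK cell markers stands out in aged replicate 1 (152 CPM). That of neutrophil markers is lowest in aged replicate 3 (25.8 CPM, of which 19.2 CPM is Csf3r), and microglia markers do not overlap between groups.

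**Figure D3:**
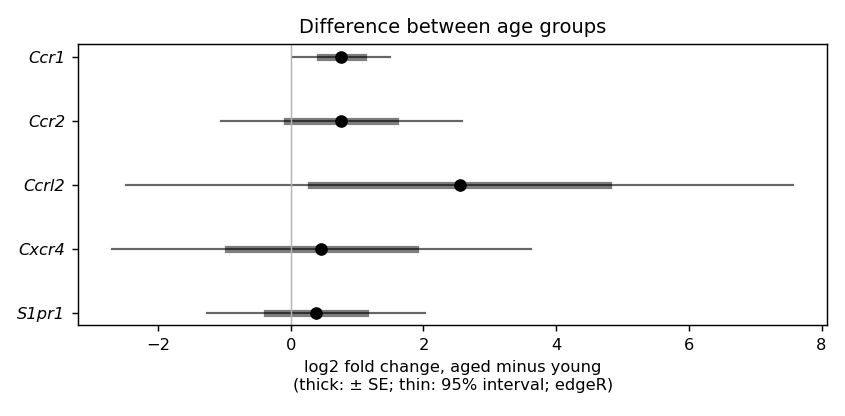
Log2 fold change of each receptor gene, aged minus young (horizontal axis), from edgeR's quasi-likelihood fit; the thick bar is ± SE and the thin line the 95% interval. All 5 estimates are above 0, and the interval clears 0 only for Ccr1 (0.028 to 1.50), before adjustment over all genes.

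Levels were set against each other per transcript length, in the authors' TPM, which carry no TMM scaling. Age groups can differ otherwise in TPM than in CPM. S1pr1 in aged replicate 2 was at 7.05 TPM, above the young libraries (2.25 to 4.84 TPM), but within their range in CPM. Ccr1 ranked highest in 6 of 6 libraries, at 53.0 ± 19.6 TPM in young and 117 ± 23.1 TPM in aged libraries. S1pr1 (3.95 ± 1.47 and 6.20 ± 2.69 TPM), Ccr2 (3.16 ± 1.51 and 6.34 ± 3.21 TPM) and Cxcr4 (2.00 ± 0.773 and 3.02 ± 1.52 TPM) followed. Ccr2 was above S1pr1 in 2 of 6 libraries and above Cxcr4 in 5 of 6, and within each age group the range of Ccr2 over the libraries overlapped those of S1pr1 and of Cxcr4. Ccrl2 was lowest in 4 libraries (young replicates 1, 2 and 3 and aged replicate 1) but ranked 2nd in aged replicate 2 (9.10 TPM) and 3rd in aged replicate 3 (8.64 TPM).

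**Figure D4:**
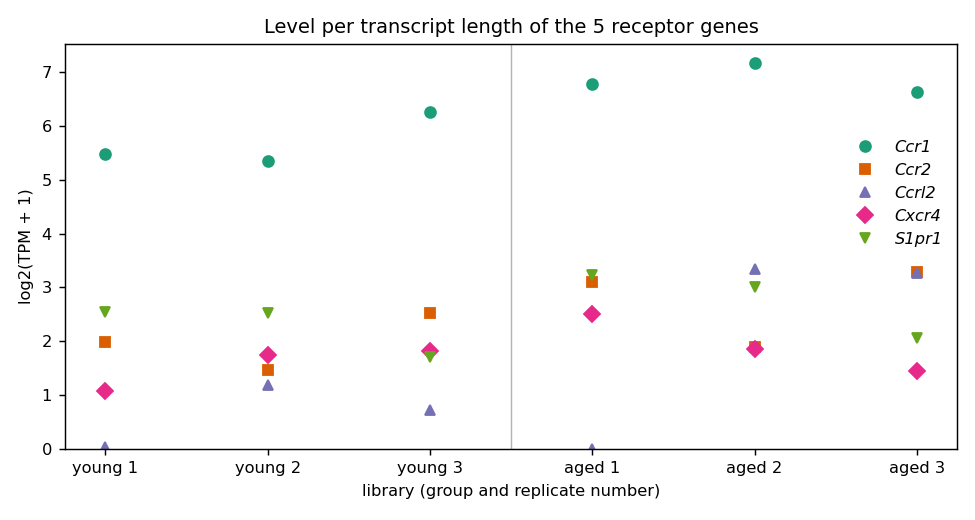
Level per transcript length of the 5 receptor genes, as log2(TPM + 1) (vertical axis), in each of the 6 libraries (horizontal axis). Ccr1 lies well above the others in every library, and Ccrl2 is lowest in 4 libraries and close to Ccr2 or S1pr1 in aged replicates 2 and 3.

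The 5 genes did not share one pattern over the libraries. Pearson's r between members in log2 CPM, over 6 libraries that span both age groups, was highest for Cxcr4 with S1pr1 (0.58) and lowest for Ccrl2 with S1pr1 (-0.64). For Ccr1 it was 0.45 with Ccr2 and -0.020 with Ccrl2. Of the genes averaging 50 CPM or more, those most like Ccr1 were Cd209b, a C-type lectin (r = 0.99), the splicing factor gene Phf5a (0.98) and the deubiquitinase gene Usp14 (0.98), and 33 of 2188 genes reached 0.9. Nearest to Ccr2 were Nudt2, Ndufs3 (a subunit of respiratory complex I) and Rack1, at 0.96, 0.95 and 0.94. Nearest to Ccrl2 were Bub3, Degs1 and Tmed10, at 0.997, 0.96 and 0.96. For Cxcr4 they were Ifitm2, Set and Efr3a, at 0.96, 0.95 and 0.94, and for S1pr1 Hspa13, Psap (prosaposin) and Ifi211, each at 0.97. These values describe 6 points that share their age groups and depth, picked as the highest among at least 2188 genes.

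Of the ligands, those of Ccr1 lay on both sides, with 2 of 5 genes higher and 2 of 5 lower at 18 months without overlap between the groups. Of all genes tested, 7.54% were higher and 7.19% lower without overlap, 14.7% in all, and 0 of the 5 ligand genes were called over all genes. Ccl6 was at 224, 120 and 162 CPM at 2 months and 554, 549 and 389 CPM at 18 months (log2 change 1.56, SE 0.35, edgeR adjusted p = 0.511). Ccl9 was at 300, 156 and 387 CPM at 2 months and 608, 644 and 411 CPM at 18 months (0.98, SE 0.39, edgeR adjusted p = 0.797). Both encode CC chemokines that macrophages make in quantity. Ccl3 was at 121, 84.3 and 82.8 CPM at 2 months and 66.0, 55.1 and 20.5 CPM at 18 months (-1.02, SE 0.54, edgeR adjusted p = 0.920). Ccl5 overlapped, at 26.2, 5.96 and 0.0358 CPM at 2 months and 96.5, 48.8 and 12.1 CPM at 18 months. In aged replicate 1, the library with the highest sum of T and NK cell markers, Ccl5 was highest. The part of T and NK cells in the Ccl5 level was not tested.

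The 3 ligand genes of Ccr2 likewise lay on both sides. Ccl2 was at 266, 659 and 866 CPM at 2 months and 225, 109 and 139 CPM at 18 months, lower in each aged library (log2 change -1.92, SE 0.48, edgeR adjusted p = 0.546). Ccl7, which binds CCR1 as well, was also lower in each, at 1855 ± 609 and 635 ± 193 CPM (-1.55, SE 0.37, edgeR adjusted p = 0.540). Ccl12 was higher in each, at 2450 ± 110 and 3612 ± 1325 CPM (0.56, SE 0.31, edgeR adjusted p = 0.932), with 5142 CPM in aged replicate 1 against 2864 and 2829 CPM in the others. All 3 were thus without overlap, against 14.7% of all genes tested and 19.6% of those averaging 50 CPM or more. As with the receptors, 0 of the 3 were called over all genes.

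**Figure D5:**
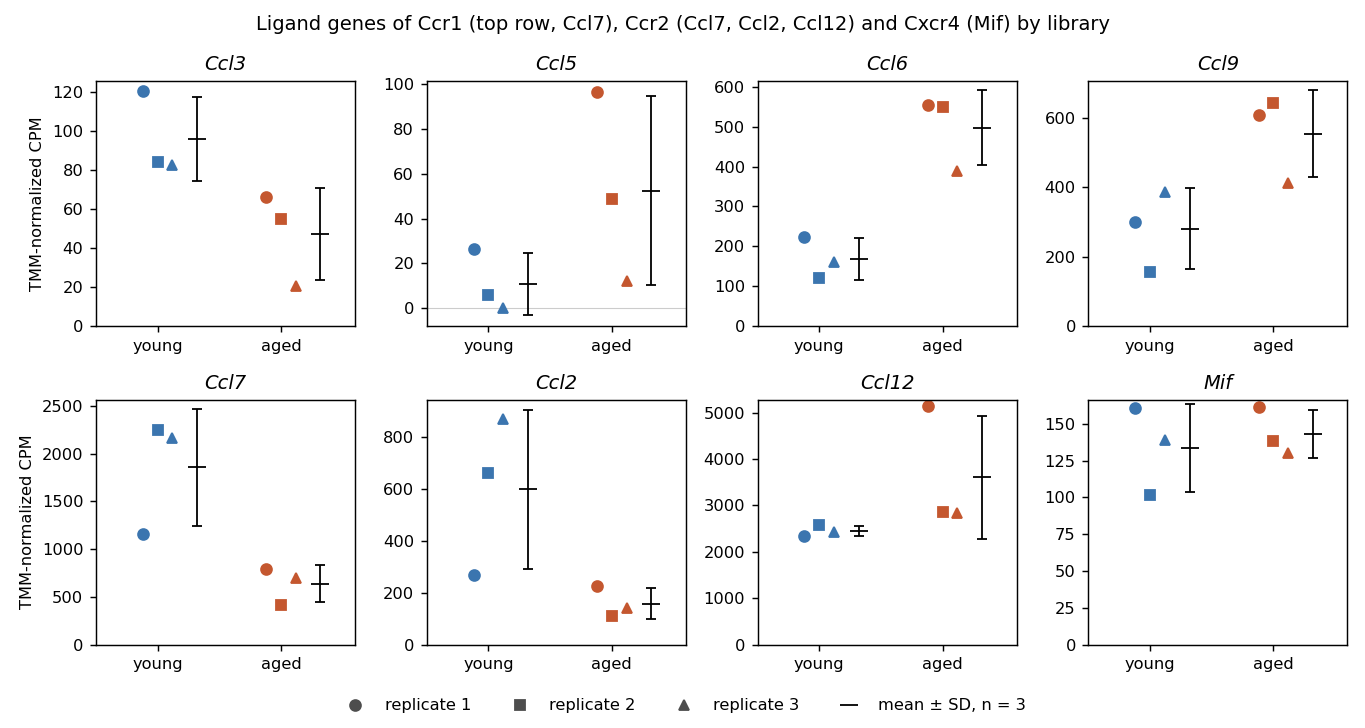
Ligand genes of Ccr1 (Ccl3, Ccl5, Ccl6, Ccl9, Ccl7), Ccr2 (Ccl7, Ccl2, Ccl12) and Cxcr4 (Mif) in TMM-normalized CPM (vertical axes) by age group; symbols are libraries and the bar is the mean ± SD. Ccl6, Ccl9 and Ccl12 are higher and Ccl3, Ccl7 and Ccl2 lower at 18 months without overlap, and Mif overlaps.

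For the remaining members, ligand transcripts in the sorted cells were low or level. Cxcl12 was too low to be tested. Mif, a cytokine gene whose product also binds CXCR4, was at 134 ± 29.8 and 143 ± 16.3 CPM (aged minus young 0.10 on the log2 scale, SE 0.36, edgeR adjusted p = 0.997), a difference smaller than the spread between libraries. Rarres2, the chemerin gene, had its highest level in aged replicate 3 (21.0 CPM) and was at 1.72 CPM or less in the other libraries.

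Of the 22 other chemokine and atypical receptor genes on the list, 5 were measured well enough to be tested, 0 were called, and 9 had 3 counts or fewer in every library. Cx3cr1, the fractalkine receptor gene that is also one of the microglia markers, was at 805, 776 and 655 CPM at 2 months and 1166, 1301 and 1043 CPM at 18 months, without overlap (log2 change 0.65, SE 0.27, edgeR adjusted p = 0.840). Cmklr1, the signalling chemerin receptor gene, was at 25.0 ± 8.73 and 36.1 ± 8.37 CPM (0.53, SE 0.70, edgeR adjusted p = 0.993).

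In the S1P pathway, S1pr2 was the 1 other receptor gene tested, at 13.1 ± 5.11 and 8.42 ± 1.62 CPM (aged minus young -0.64 on the log2 scale, SE 1.23, edgeR adjusted p = 0.993). S1pr3, S1pr4 and S1pr5 were too low to be tested. Of the 9 genes of S1P synthesis, breakdown and transport, 3 were tested and 0 called. The highest in CPM were the S1P lyase gene Sgpl1, at 128 ± 29.6 and 96.6 ± 20.7 CPM, and the phosphatase gene Sgpp1, at 90.1 ± 41.0 and 49.6 ± 11.3 CPM, both with overlap. The fitted changes of these 2 breakdown genes were -0.40 and -0.86, against 0.38 for S1pr1. The third tested gene of the list, the synthesis gene Sphk2, was also fitted below 0 (-1.59, SE 1.83). None was past the test.

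Downstream of the receptors, 10 of 12 genes of desensitisation were tested and 0 called, with 6 fitted changes above 0 (median 0.23). The highest in CPM were Rgs10 (1075 ± 128 and 1197 ± 475 CPM) and Rgs2 (652 ± 181 and 803 ± 349 CPM), which shorten G protein signals, and both overlapped between groups. All 14 genes of Gi signalling and migration were tested and 0 called, with 13 fitted changes above 0 (median 0.65) and 2 genes without overlap. The highest in CPM were Cdc42, a small GTPase of cell polarity, at 835 ± 97.9 and 1407 ± 273 CPM without overlap (log2 change 0.75, SE 0.28, edgeR adjusted p = 0.775), and Rac1, at 240 ± 46.3 and 308 ± 113 CPM with overlap. Over all 73 pathway genes, 43 were tested, 6 were higher and 3 lower at 18 months without overlap, and 20.9% without overlap stood against 14.7% of all genes tested and 19.6% of those with a mean of at least 50 CPM.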

How the data were processed

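Per the labels' protocols, RNA of sorted CAMs went through a template-switching kit for low input, which does not mark strand, and was sequenced as single reads. Per the submitters' processing notes, the tools were bcl2fastq 2.20, FastQC, fastp, Picard and DRAGEN, with mm10 as the build; which did what, and the annotation, is not given in the sources used here. Per the file headers, each deposited table holds estimated counts per gene, not scaled to depth, and TPM, which the authors scaled to depth and length. Counts were rounded to whole numbers. Of 35598 identifiers, 35513 matched GENCODE M21 without version, and all 5 members matched once.

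Genes were filtered by filterByExpr, scaled by TMM and tested with edgeR 4.0.16 (R 4.3.3, quasi-likelihood F test, robust, two-sided, no covariate), adjusted by Benjamini-Hochberg over 10661 genes and called at an adjusted p under 0.05. The script was tested on simulated data. The SE was taken back from F and the fold change. Alternatives were DESeq2 size factors, DESeq2 1.42.0, limma 3.58.1 (voom, and trend on log2(TPM + 1) for a mean TPM of at least 1), 3 filters, a replicate block and leaving out each library. A floor of 3 counts covers counting error alone, because PCR copies are not independent molecules.

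Members and lists were chosen with earlier results of these data known. Named are the members, ligands and other receptors or S1pr1 regulators averaging 10 CPM or more, the 2 most abundant genes of other pathway lists, and per member the 3 genes with the highest r. Some results under this rule are not reported here. Cd69, Rarres2, Ccr3, Ccr1l1, genes too low to test and single markers were chosen after their values were seen. Coding sequences were read from the GENCODE M21 transcripts, taking the longest coding sequence per gene.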

Additional observations from a re-analysis of the deposited data

How the results depend on the processing

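Over 14 alternative settings, 64 values were computed for the 5 members. None was called (lowest adjusted p 0.215, for Ccr1 among genes averaging 50 CPM or more), and 62 kept their direction. The exceptions were Cxcr4 (-0.094) and S1pr1 (-0.10) without aged replicate 1. Leaving out 1 library gave log2 fold changes of 0.59 to 1.07 for Ccr1, 0.34 to 1.19 for Ccr2, 1.99 to 3.48 for Ccrl2, -0.094 to 0.73 for Cxcr4 and -0.10 to 0.66 for S1pr1. The filter of 10 CPM in 3 libraries removed Ccrl2 and Cxcr4, and the one of 50 CPM on average left only Ccr1. The unadjusted p of Ccr1 was under 0.05 in 8 of 14 alternatives (0.0173 to 0.170). Over all genes, the 1 higher and 0 lower calls changed to 51 and 11 without a filter, 19 and 6 among genes averaging 50 CPM or more, 270 and 187 with DESeq2, 0 and 0 in limma-voom, and 0 to 2 and 0 to 1 when a library was left out; the cause was not tested. Between libraries with the same replicate number, correlations of deviations from the group means were -0.0097, -0.026 and 0.022. Those between different numbers were -0.023 to 0.032. Such values cannot tell whether a number marks a shared batch or day. With a replicate block the calls stayed at 1 and 0. The members were then at 0.80 (Ccr1), 0.54 (Ccr2), 1.31 (Ccrl2), 0.36 (Cxcr4) and 0.34 (S1pr1). Low counts were common at the levels of Ccrl2 and Cxcr4, though Cxcr4 itself had 143 or more in every library: of the tested genes within 2-fold of their means, 47.8% and 50.6% had a library with 3 counts or fewer.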

Other observations

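Some lymphocyte-type receptor genes differed widely between libraries of a group, picked here after their values were seen. Cxcr6, a receptor gene of tissue-resident T cells, had 148 counts in aged replicate 1, 1 count in aged replicate 2 and 0 in the other 4 libraries. Cxcr5, the receptor gene for the B cell attractant CXCL13, had 182 counts in aged replicate 2, 13 in aged replicate 1 and 0 to 3 in the other libraries. Cxcr3, carried by activated T cells and plasmacytoid dendritic cells, was more widespread, with 671, 131 and 130 counts in the young libraries and 42, 923 and 0 in the aged ones. S1pr4, a lymphoid S1P receptor gene, had 29 counts in young replicate 2, 50 in aged replicate 2 and 0 or 1 elsewhere.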
